A study of Mus musculus with 8 samples.

Results

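The genes described here encode the contractile apparatus of smooth muscle. They are Acta2, Actg2, Myh11, Myl9, Mylk, Cnn1, Cald1, Tagln, Smtn and Des, and they were followed in islets of mice on high fat diet (HF) and on normal chow (NC). Every probe set annotated to exactly 1 of these 10 genes was taken, which gave 20 of the 45101 probe sets of the array, and no probe set was shared between one of them and another gene. Islet RNA was measured on Affymetrix expression arrays in 4 HF samples (replicates 21, 22, 23 and 24) and 4 NC samples (replicates 1, 2, 4 and 5), with 1 array per sample. HF mice received a diet with 45% of its energy as fat and NC mice a regular rodent chow. All were male C57Bl/6J mice, a strain in which both groups lack functional Nnt, and were put on diet at 4 weeks of age. The labels give 12 weeks on diet and the methods a longer time. Islets were released with collagenase, separated on Ficoll and picked by hand, and each sample pooled the islets of 2 mice, so that n counts pools.

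In smooth muscle, actin filaments slide along myosin filaments when the regulatory light chain of myosin is phosphorylated by a calmodulin-dependent kinase. Calponin and caldesmon sit on the actin filament and restrain this cycle, and desmin filaments link the contractile units to each other. In the pancreas this set of genes is carried by the muscle cells of arterioles, in part by pericytes on capillaries, and by stellate cells once they are activated, while beta cells use the non-muscle forms of actin and myosin. Their transcription depends on serum response factor, which binds a short element named the CArG box, together with coactivators of the myocardin family.

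The CArG box consists of CC, then 6 letters that are each A or T, then GG, and it reads as the same motif on either strand. It was sought in the 250 bases before the annotated start of each gene in RefSeq (build GRCm38.p6), and a near match was allowed 1 C or G among the 6 central letters. Of the 10 genes, 7 had such a window, with 2 windows for Cald1, while Tagln, Myh11 and Actg2 had none and were not searched. Acta2 and Myl9 were the genes with a match among those searched. A CArG box stood in 1.47% of all 32851 windows, and a CArG box or a near match in 8.59%. No match stood in the window of Mylk, which fell in HF islets too, or in those of Cnn1, Cald1, Smtn and Des. Whether a match goes with a fall was not tested. The windows of Acta2 and Myl9, whose probe sets had the largest falls given below, and of Des are shown with the matches in capitals.
Acta2: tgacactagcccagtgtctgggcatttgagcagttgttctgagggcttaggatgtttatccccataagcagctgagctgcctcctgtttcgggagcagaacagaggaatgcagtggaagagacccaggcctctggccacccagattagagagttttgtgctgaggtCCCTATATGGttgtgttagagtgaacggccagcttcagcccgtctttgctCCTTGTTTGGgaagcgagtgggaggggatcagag
Myl9: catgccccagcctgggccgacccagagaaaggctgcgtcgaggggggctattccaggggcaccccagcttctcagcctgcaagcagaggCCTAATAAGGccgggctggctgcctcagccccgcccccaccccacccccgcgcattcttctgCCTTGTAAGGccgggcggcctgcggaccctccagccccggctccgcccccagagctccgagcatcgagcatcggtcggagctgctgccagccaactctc
Des: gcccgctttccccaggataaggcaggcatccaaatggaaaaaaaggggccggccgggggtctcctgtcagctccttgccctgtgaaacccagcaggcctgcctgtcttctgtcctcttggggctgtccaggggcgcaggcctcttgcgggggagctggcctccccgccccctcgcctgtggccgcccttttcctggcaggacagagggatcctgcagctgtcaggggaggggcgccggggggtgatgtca

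The Acta2 window lies at chr19:34255374-34255623 on the minus strand, and its 2 near matches begin 84 and 34 bases before the start. The Myl9 window lies at chr2:156775214-156775463 on the plus strand and holds 1 CArG box, which begins 161 bases before the start, and 1 near match, which begins 99 bases before it. The Des window lies at chr1:75360042-75360291 on the plus strand. A match is a description of the letters in the window.

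The values are GCRMA intensities, which are adjusted for background and normalized across arrays and have no physical unit. Their median over all probe sets was 13.03 to 13.81 in the 8 samples, and 43.2% to 44.6% of probe sets lay under an intensity of 9. Endocrine markers had the high levels of islets, with means of 72718 in HF and 67580 in NC for Ins2 and of 83959 in HF and 83466 in NC for Gcg. Acinar cell markers were high in both groups too, such as Cpa1 at 38195 in HF and 38888 in NC. Probe sets were tested when at least 3 of their 8 values reached 9, without regard to diet. The test compared HF with NC in limma over all 25414 such probe sets, and a change was called at a Benjamini-Hochberg adjusted p under 0.05 and a fold of at least 1.5.

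Of the 20 probe sets, 10 were retained and tested, and each of these lay over 9 in all 8 samples. They represent 7 genes, namely Cald1, Acta2, Mylk, Tagln, Myh11, Myl9 and Des. The other 10 probe sets are not called absent, but they lay between 3.68 and 10.9 in every sample, at the bottom of the scale, and 9 of them were under 9 throughout. Actg2, Cnn1 and Smtn had no other probe set.

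**Figure D1:**
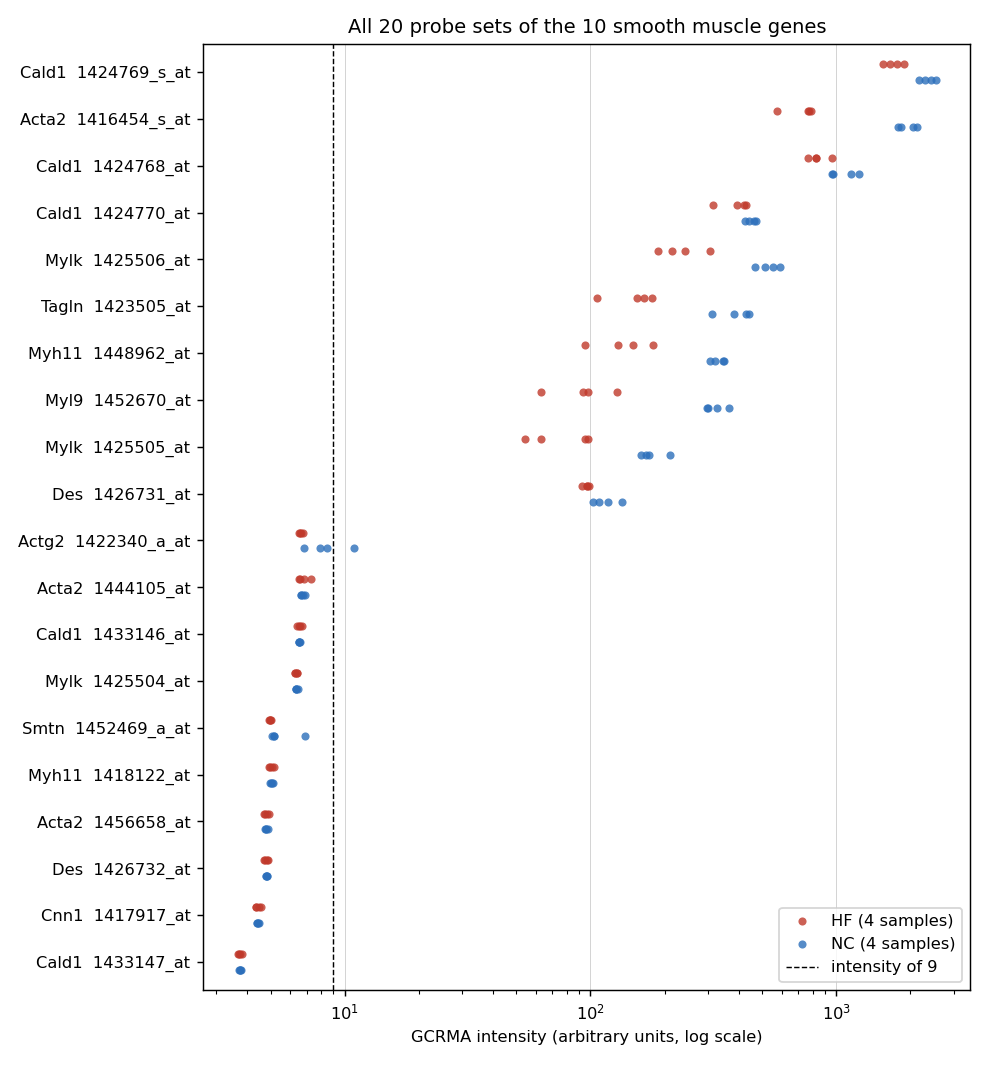
GCRMA intensity (x axis, log scale, arbitrary units) of each of the 20 probe sets in the 4 HF samples (red, upper row of each pair) and the 4 NC samples (blue, lower row), with 1 point per sample and a dashed line at an intensity of 9. The 10 retained probe sets lie far right of the line, and in 8 of them every HF point lies left of every NC point.

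Actin, myosin and the myosin kinase fell together in HF islets, as did transgelin. Of the 10 retained probe sets 6 were lower in HF islets, none was higher and 4 did not pass the test, while 3.08% of all tested probe sets were lower and 0.649% higher. The 6 belong to Myl9, Acta2, Tagln, Myh11 and Mylk (2 probe sets), and each of them had less than 0.5 of its NC level. For Cald1 (3 probe sets) and Des (1 probe set) the estimates were also below 0, with none past the fold limit. In 8 of the 10 every HF sample lay below every NC sample, which was the case in 7.88% of all tested probe sets. In such bulk samples fewer cells of a type and less RNA per cell cannot be told apart.

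Acta2, smooth muscle alpha actin, forms the thin filaments of vascular smooth muscle. Its retained probe set had intensities of 575, 769, 770.4 and 791 in HF samples and of 2049.5, 1783, 1825 and 2137 in NC samples. The groups were far apart, and HF replicate 21 was the lowest. The mean was 726 ± 101 in HF and 1949 ± 172 in NC (SD, n = 4 each), and the log2 fold change was -1.43 with a standard error of 0.12 (limma, adjusted p = 9.69e-04), which is 37.1% of the NC level. Its name ends in _s_at, the manufacturer's mark for probes that can match more than 1 transcript, and Acta2 is similar in sequence to the other actins. The other 2 Acta2 probe sets lay between 4.72 and 7.27 in all samples, with overlapping groups.

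Actg2, smooth muscle gamma actin, is the actin of visceral smooth muscle such as that of the gut. It had intensities of 6.51, 6.59, 6.63 and 6.80 in HF samples and of 10.9, 8.47, 6.83 and 7.94 in NC samples. Only NC replicate 1 was over 9, so that both groups lay mostly at the bottom of the scale and no fold is given.

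Myh11, the heavy chain of smooth muscle myosin, is among the genes most closely tied to this cell type. Its intensities were 94.99, 148, 180.2 and 130 in HF samples, against 345, 320, 305 and 348 in NC samples. Again HF replicate 21 was the lowest, and the NC samples lay close together. The mean was 138 ± 35.6 in HF and 329 ± 20.4 in NC (SD, n = 4 each), and the log2 fold change was -1.29 with a standard error of 0.18 (limma, adjusted p = 0.00579). Its other probe set lay between 4.92 and 5.18 in all samples.

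Myl9, the regulatory light chain whose phosphorylation starts contraction, had the largest fall of the 7 measured genes. It had intensities of 98.1, 62.7, 128 and 93.2 in HF samples and of 365, 299, 300 and 326 in NC samples. Here HF replicate 22, and not 21, was the lowest. The mean was 95.5 ± 26.7 in HF and 322 ± 31.3 in NC (SD, n = 4 each), and the log2 fold change was -1.80 with a standard error of 0.20 (limma, adjusted p = 0.00258), which is 28.8% of the NC level. Of all tested probe sets 0.637% had a log2 fold change as low as this or lower.

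Mylk encodes the myosin light chain kinase, which phosphorylates that light chain, and was read by 2 retained probe sets. The brighter had intensities of 188, 306, 243 and 215 in HF samples and of 512, 553, 467 and 590.3 in NC samples. The dimmer had 94.5, 97.7, 54.4 and 62.9 in HF samples and 172, 160.5, 167 and 211 in NC samples. Neither overlapped between the groups, yet the order of the HF samples differed, since replicate 21 was the lowest on the brighter and the second highest on the dimmer. The log2 fold change was -1.18 on the brighter (standard error 0.15, adjusted p = 0.00450 from limma) and -1.24 on the dimmer (standard error 0.20, adjusted p = 0.0118). With the methods' t-test in place of limma the dimmer missed the limit (adjusted p = 0.05002). The remaining Mylk probe set lay between 6.27 and 6.49 in all samples.

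Tagln, transgelin or SM22 alpha, binds along actin filaments and is an early marker of smooth muscle. It had intensities of 106, 178, 165 and 154 in HF samples, against 440.0, 382, 313 and 431 in NC samples. The samples kept apart by diet, with HF replicate 21 the lowest and NC replicate 4 the lowest of its group. The mean was 151 ± 31.1 in HF and 391 ± 58.2 in NC (SD, n = 4 each), and the log2 fold change was -1.39 with a standard error of 0.18 (limma, adjusted p = 0.00444).

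Cald1, caldesmon, is made in a long form by smooth muscle and in a short form by many other cells, and it was the brightest of the 7 genes. Its brightest probe set had intensities of 1650.4, 1879, 1541 and 1758 in HF samples and of 2531, 2168, 2298 and 2416 in NC samples. The groups did not overlap, but the step between them was small. The log2 fold change was -0.46 (standard error 0.08, 95% interval -0.65 to -0.28, adjusted p = 0.0141 from limma), so that it passed on p and not on the fold limit. The second probe set had a log2 fold change of -0.34 (adjusted p = 0.108) and the dimmest of the 3 of -0.22 (adjusted p = 0.286), and in both the groups overlapped. Which form each probe set reads was not determined here, and the remaining 2 lay between 3.68 and 6.70.

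Des, desmin, is the intermediate filament of muscle and is also found in pericytes and stellate cells. It had intensities of 98.5, 96.6, 96.7 and 92.6 in HF samples and of 103, 135, 108 and 118 in NC samples. The HF values were almost level and lay just under the NC values, of which NC replicate 2 was the highest. The log2 fold change was -0.26 (standard error 0.09, 95% interval -0.46 to -0.06, adjusted p = 0.128 from limma), and the interval holds no fall of 1.5-fold. A two-sided exact permutation test of this single probe set gave p = 0.0286, the smallest that 70 arrangements of the samples allow, against which the adjusted p accounts for all probe sets tested. Its other probe set lay between 4.72 and 4.89.

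Cnn1 and Smtn, the remaining markers of differentiated smooth muscle, gave little signal. Cnn1, calponin 1, lay between 4.36 and 4.56 in HF samples and between 4.41 and 4.48 in NC samples. Smtn, smoothelin, lay between 4.93 and 5.01 in HF samples and between 5.05 and 6.91 in NC samples, with NC replicate 1 the highest as it was for Actg2. Neither gene was retained, so a difference between the diets was not tested in the main comparison. With low values kept in, Smtn did not pass (limma, adjusted p = 0.701). At this end of the scale the small step between its groups is not read as a change.

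**Figure D2:**
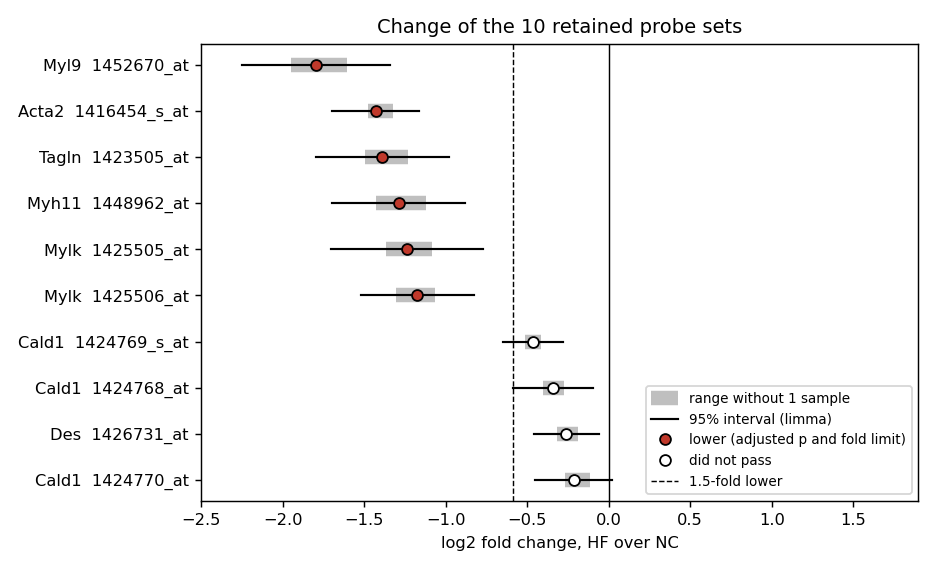
Log2 fold change of HF over NC (x axis) of the 10 retained probe sets, with the 95% interval from limma as a line and the range of estimates without any 1 sample as a grey bar. Filled points passed the adjusted p and the fold limit (dashed line at 1.5-fold lower), and these 6 lie between -1.80 and -1.18.

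The genes were also set against each other. The difference of 2 genes was formed within each sample on the log2 scale, with the brightest probe set per gene, and compared between the diets over all 21 pairs. HF and NC samples did not overlap in 11 pairs, each with p = 0.0286 in a two-sided exact permutation test, the smallest possible with 4 against 4, and none passed after adjustment over the 21 pairs (adjusted p = 0.0545). Of these, 10 pairs join 1 of the 5 genes called lower with Cald1 or Des, with differences of log2 fold changes between -1.53 and -0.71, and are a description, since the genes were divided by the same fold changes. The remaining pair was Myl9 with Mylk, both called lower, with a difference of -0.62. Acta2 minus Tagln was -0.04, and their HF and NC samples overlapped.

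**Figure D3:**
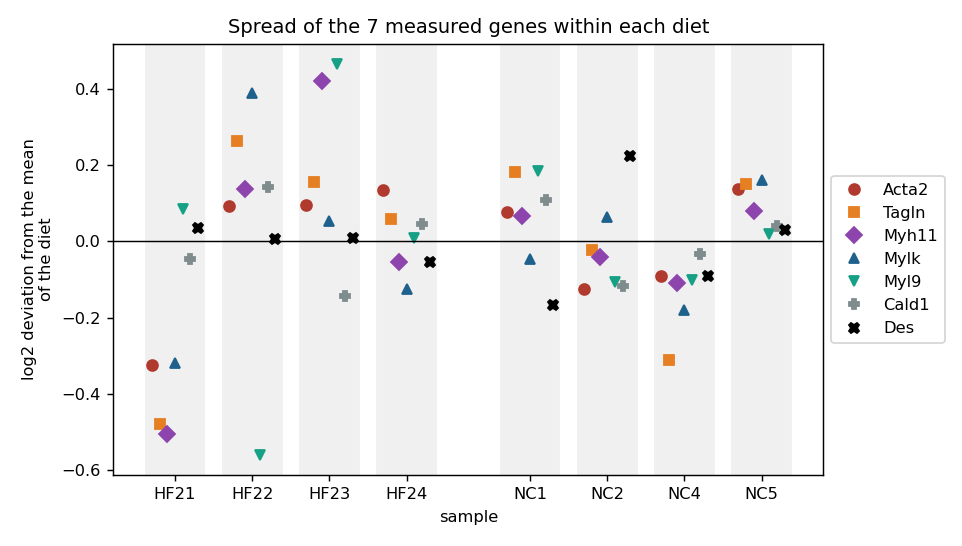
Log2 deviation of each sample (x axis, HF samples left and NC samples right) from the mean of its diet (y axis) for the brightest probe set of the 7 measured genes, with 1 symbol per gene side by side within a sample. In HF replicate 21 Acta2, Tagln, Myh11 and Mylk lie lowest, between -0.50 and -0.32, while Myl9 is lowest in HF replicate 22 at -0.56.

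The samples of a diet differed among themselves by gene. HF replicate 21 deviated from the HF mean by -0.50 on the log2 scale for Myh11, -0.48 for Tagln, -0.32 for Acta2 and -0.32 for Mylk, and by 0.08 for Myl9. In HF replicate 22 the deviation was 0.39 for Mylk and -0.56 for Myl9. Among NC samples the deviations of Acta2, Myh11, Myl9 and Cald1 stayed between -0.12 and 0.19, and the widest was that of Tagln in replicate 4, at -0.31. Des deviated by -0.17 in NC replicate 1 and by 0.23 in NC replicate 2, a wider spread than its log2 fold change of -0.26. Over 12226 other genes with 1 probe set each, the 5 whose deviations followed the mean deviation of the 7 genes most closely over the 8 samples were 1810013L24Rik (Pearson r = 0.99), Gon4l (0.96), Ipo4 (0.96), Plce1 (0.96) and Shank3 (0.96). Of these, Plce1, a phospholipase C, had 68.0 ± 9.49 in HF and 192 ± 15.1 in NC (SD, n = 4 each), and the log2 fold change was -1.51 (adjusted p = 9.69e-04 from limma), and Shank3, a scaffold protein of synapses, had -0.77 (adjusted p = 0.00577). The other 3 did not pass the test. With 8 samples and this many genes, such values are a description of the samples.

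Some partners on the actin filament and in dense bodies were lower too. Of 14 measured genes of this list 4 were lower, none was higher and 10 did not pass, and the median log2 fold change was -0.45 beside 0.00 over all 12233 genes with 1 probe set each, of which 4.31% were lower and 0.450% higher. Flna, filamin A, which crosslinks actin, had 264 ± 23.1 in HF and 653 ± 79.4 in NC (SD, n = 4 each), and the log2 fold change was -1.30 with a standard error of 0.10 (limma, adjusted p = 9.69e-04). Tns1, tensin 1 of focal adhesions, had -1.17 (adjusted p = 0.00498) on the brightest of 3 probe sets, and the other 2 did not pass. Filip1l, which interacts with filamin, had -1.14 (adjusted p = 0.00661). The fourth gene was Tpm2, beta tropomyosin of the thin filament, with -1.13 (adjusted p = 0.0155), and those that did not pass both limits lay between -0.66 and 0.09. Among them Csrp1 had -0.56 (adjusted p = 0.0103 from limma), Pdlim7 -0.50 (adjusted p = 0.0169) and Ablim1 -0.31 (adjusted p = 0.0467). These were past the limit on p and not on fold, and Csrp1 was lower on 1 of its 2 probe sets.

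Of 11 measured genes that set the phosphorylation of the light chain, 2 were lower, none was higher and 9 did not pass. Over all 12233 genes 4.31% were lower. The median log2 fold change of the list was -0.15. Gucy1a1, a subunit of the nitric oxide receptor guanylate cyclase, had 240.0 ± 25.3 in HF and 499 ± 75.6 in NC (SD, n = 4 each), and the log2 fold change was -1.05 (adjusted p = 0.00323 from limma) on the brightest of 3 probe sets, and the other 2 did not pass. Ppp1r14a, an inhibitor of myosin phosphatase, was dim at 14.4 ± 2.40 in HF and 24.2 ± 4.85 in NC (adjusted p = 0.0408). Its call ended when low values were kept in (adjusted p = 0.0888) and without NC replicate 1, 2 or 5 or any of the 4 HF replicates (adjusted p up to 0.113). Ppp1cb, a catalytic subunit of that phosphatase, had a log2 fold change of -0.08. Among those that did not pass both limits, Gucy1b1 had -0.54 (adjusted p = 0.0145 from limma), past the limit on p and not on fold.

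Transcription factors of the smooth muscle program were measured at 9 genes, of which 2 were lower, none was higher and 7 did not pass. Over all 12233 genes 4.31% were lower. The median of the list was -0.24 on the log2 scale. Foxf1, a forkhead factor of gut mesenchyme, had 95.5 ± 21.5 in HF and 207 ± 46.8 in NC (SD, n = 4 each), and the log2 fold change was -1.12 (adjusted p = 0.0232 from limma). Gata6, a zinc finger factor of smooth muscle and of pancreas, had -0.71 (adjusted p = 0.0350). Both calls ended when low values were kept in (adjusted p = 0.0562 for Foxf1 and 0.0770 for Gata6) and when NC replicate 1, 2 or 5 was left out or HF replicate 21 was (adjusted p up to 0.0677 for Foxf1 and 0.0989 for Gata6), and that of Gata6 also without HF replicate 22 or 24. Each was called on 1 of 2 probe sets. Srf and the coactivators Mkl1 and Mkl2 were among the genes that did not pass, which lay between -0.28 and 0.06, and Myocd, myocardin, was not retained. Of 6 channels and calcium handling genes none passed both limits, with log2 fold changes between -0.11 and 0.53 and a median of 0.21, above 0. Kcnmb1, Pln and Ryr2 of this list were on the array but not retained. Which cells gave the signal of the 6 was not tested. Atp2a2, the calcium pump of the endoplasmic reticulum, had 28016 ± 460 in HF and 23462 ± 820 in NC (SD, n = 4 each), and its log2 fold change of 0.26 passed on p (limma, adjusted p = 0.0206) and not on fold. Kcnma1, the pore of a calcium-activated potassium channel, had 0.37 (adjusted p = 0.0282), likewise under the fold limit, and Stim1, a calcium sensor of the endoplasmic reticulum, had -0.11 (adjusted p = 0.694).

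Of 11 non-muscle paralogs of the same proteins 1 was lower, none was higher and 10 did not pass, beside 4.31% lower over all 12233 genes. The median log2 fold change was -0.20. Actb, beta actin, had 33146 ± 2001 in HF and 33088 ± 1986 in NC (SD, n = 4 each), and the log2 fold change was 0.00 (standard error 0.07), and Actg1, cytoplasmic gamma actin, had -0.07. The gene that was lower was Cnn2, calponin 2, with 171 ± 27.0 in HF and 326 ± 71.9 in NC and a log2 fold change of -0.91 (adjusted p = 0.0199 from limma). Its call ended without NC replicate 2 or HF replicate 21 or 24 (adjusted p up to 0.0654). Those that did not pass both limits lay between -0.34 and 0.10, and among them Myl12a, a non-muscle regulatory light chain, had -0.34 (adjusted p = 0.0277) and Myh10, a non-muscle myosin heavy chain, had -0.32 (adjusted p = 0.0143), past the limit on p and not on fold. Of 13 genes of striated muscle that resemble the smooth muscle genes 4 were retained, and none of these passed, such as Acta1, skeletal muscle actin, at 27.5 in HF and 23.1 in NC, and of 6 markers of skeletal and cardiac muscle none was retained.

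**Figure D4:**
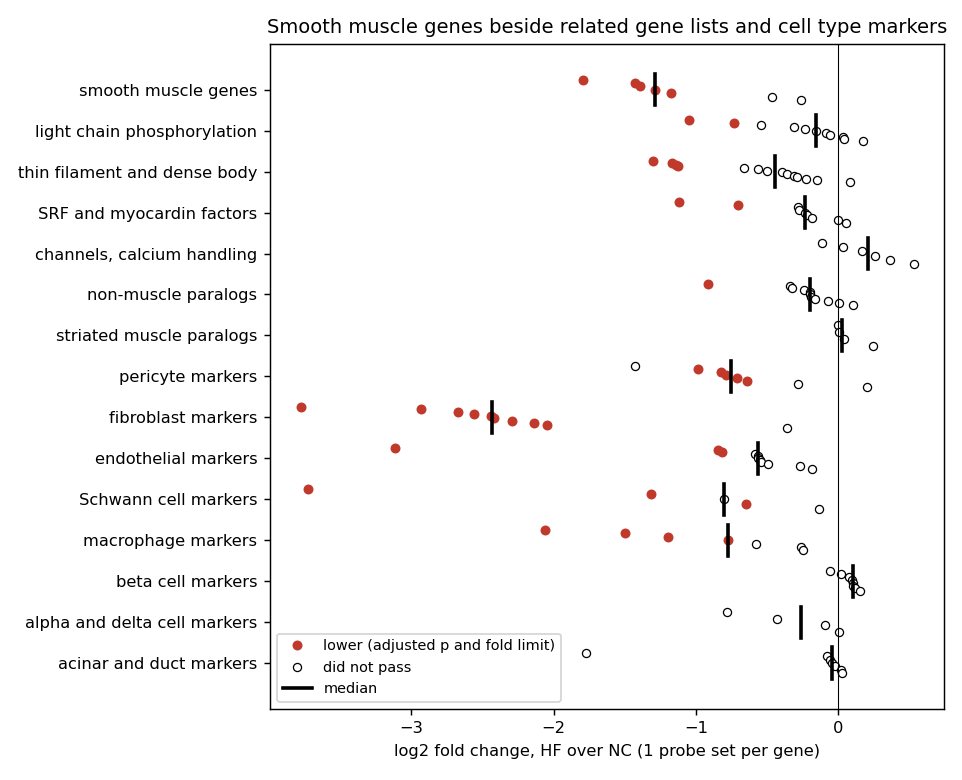
Log2 fold change of HF over NC (x axis) of each measured gene, with 1 probe set per gene, for the smooth muscle genes and for related gene lists and cell type markers (rows), with filled points for genes that were lower and a vertical bar at the median. The median is -1.29 for the 7 smooth muscle genes, -0.75 for pericyte markers, -2.43 for fibroblast markers and 0.10 for beta cell markers.

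Some markers of other cells around the islet were lower in HF islets too, where 4.31% of all 12233 genes with 1 probe set each were lower. Of 8 measured pericyte markers 5 were lower and 3 did not pass, and the median log2 fold change was -0.75. Notch3, a receptor of mural cells, had 281 ± 65.8 in HF and 548 ± 63.0 in NC (SD, n = 4 each), and the log2 fold change was -0.98 (adjusted p = 0.0126 from limma), and Abcc9, a subunit of the pericyte potassium channel, had -0.83 (adjusted p = 0.0120). Notch3 was called on 1 of 2 probe sets and Abcc9 on 1 of 3, and with low values kept in 2 of the 8 markers were lower. Pdgfrb, the receptor of platelet-derived growth factor on mural cells, had -0.64 (adjusted p = 0.0307) on 1 of 2 probe sets, and its call ended when NC replicate 1, 2 or 5 was left out or HF replicate 21, 23 or 24 was (adjusted p up to 0.0913). Rgs5, the brightest pericyte marker, had 6470.4 in HF and 7859 in NC. Its log2 fold change of -0.28 passed on p (limma, adjusted p = 0.0295) and not on fold. Kcnj8 had -1.43 (adjusted p = 0.0603) and Anpep 0.20 (adjusted p = 0.456), neither of which passed, and Cspg4 was not retained. The summed intensity of the list was 9163 to 10397 in HF samples and 11199 to 12086 in NC samples. Rgs5, Kcnj8, Anpep and Cspg4 were singled out after their values were seen.

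Of 10 measured fibroblast and stellate cell markers 9 were lower, and the median log2 fold change was -2.43. Col1a2, a chain of type I collagen, had 247 ± 68.0 in HF and 1430.3 ± 286 in NC (SD, n = 4 each), and the log2 fold change was -2.56 (adjusted p = 0.00160 from limma). Their summed intensity was 1588 to 3223 in HF samples and 9260 to 14253 in NC samples. Gfap, a stellate cell marker, was not retained, and Ngfr, another, had -0.36 (adjusted p = 0.0900) and did not pass. Of endothelial markers 3 of 11 were lower (median -0.56, summed intensity 13108 to 14714 in HF and 17260 to 20029 in NC, and 7 lower with samples scaled on beta cell markers), of Schwann cell markers 3 of 5 (median -0.80, 1651 to 1719 in HF and 2532 to 2620 in NC) and of macrophage markers 4 of 7 (median -0.77, 1204 to 1346 in HF and 2386 to 2814 in NC). The endothelial markers Flt1, Esam, Plvap and Erg, with log2 fold changes between -0.56 and -0.50, passed on p and not on fold (limma, adjusted p up to 0.0356). Mbp, a Schwann cell marker that did not pass on its brightest probe set, was lower on 4 of its 7 retained probe sets. Of 8 beta cell markers none passed (median 0.10, 263796 to 276569 in HF and 249351 to 255257 in NC). Of 4 alpha and delta cell markers none passed either (median -0.26, range -0.78 to 0.01). The same held for 7 acinar and duct cell markers (median -0.04, range -1.77 to 0.03). The lowest were Irx2 in the first list, at -0.78 (adjusted p = 0.0569 from limma), and Krt19 in the second, at -1.77 (adjusted p = 0.0529). Krt19 was dim, at 24.3 in NC and at 6.24 in HF, under the intensity of 9 used as filter. It was retained through its NC values. With samples scaled on beta cell markers 1 of each list was lower. The part of these cells in the fall of the smooth muscle genes was not tested.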

How the data were processed

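The islet RNA of 4 HF and 4 NC samples was hybridised to Affymetrix MOE 430v2 arrays. Per the submitters' notes the authors used ArrayAssist Lite 3.4, with GCRMA giving 1 intensity per probe set and sample. These deposited intensity values are linear, as their range shows, and were taken to log2 here with no further normalization. Genes were assigned by GEO's platform annotation, in which 34958 probe sets have 1 gene, 932 several and 9211 none that is named here. Present calls and the SAM test of the methods were not used here. Probe sets with a third-highest intensity of at least 9 were kept (25414 of 45101).

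The diets were set against each other with limma 3.58.1 under R 4.3.3, by lmFit and eBayes on all retained probe sets with Benjamini-Hochberg adjustment, and the fit was tested on simulated data. A log2 fold change is the HF mean minus the NC mean of log2 values. Single values had exact permutation tests. Where a gene stands for 1 probe set, it is the retained one with the highest mean. The genes, the lists and the rule for named genes (all 10 genes, up to 3 of each list by smallest p or else highest mean, and 5 genes of like pattern) were chosen with earlier results of these data known. Tpm2, Srf, Mkl1, Mkl2, Myocd, Myl12a, Myh10, Gfap and Ngfr were named in addition, after their values were seen. So were Kcnmb1, Pln, Ryr2, Kcnj8, Anpep, Irx2 and Krt19. The same holds for Gucy1b1, Csrp1, Pdlim7, Ablim1, Flt1, Esam, Plvap, Erg and Mbp. The alternatives were other filters, scalings, priors, weights, tests and fold limits, raised low values, and leaving out each sample. The number of arrays limits the precision. Mice were housed 5 to a cage per the methods, but which pools shared a cage or a day is not stated. Where a cage held mice of 1 diet only, an effect of cage cannot be told apart from that of diet. So p-values measure the spread between these samples and take no account of cages.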

Additional observations from a re-analysis of the deposited data

Results flagged for a closer look

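In 1 of the 20 groups of 4 values that the 10 retained probe sets give, a sample stood apart from the other 3 by more than Dixon's critical value at the 95% level, and chance alone marks about 1 in 20 such groups. This was Acta2 in HF replicate 21, with an intensity of 575, where the other HF samples lay between 769 and 791. Without this sample the log2 fold change of Acta2 was -1.32 (adjusted p = 0.00264 from limma).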

How the results depend on the processing

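No paired analysis was possible because the replicate numbers of HF and NC samples are not shared. The 6 lower probe sets of the smooth muscle genes kept their calls without any 1 of the 8 samples and under every other setting, with the exception of the dimmer Mylk probe set under the methods' t-test with adjustment (log2 fold change -1.24, adjusted p = 0.05002). With no fold limit the brightest Cald1 probe set passed (log2 fold change -0.46, adjusted p = 0.0141). All 10 estimates stayed below 0, and no probe set was higher under any setting. With no filter on low values 1 gene of light chain phosphorylation, 0 transcription factors and 2 pericyte markers were lower, against 2, 2 and 5. The cause was not tested, though more probe sets enter that adjustment. With samples scaled on beta cell markers 7 endothelial markers, 1 alpha or delta cell marker and 1 acinar or duct cell marker were lower, and the median of all probe sets was -0.06. Over all tested probe sets the count of lower ones, 784 with limma, was 453 with the methods' t-test after adjustment and 432 at a fold limit of 2. The count of higher ones, 165 with limma, was 59 and 47 under these, 85 with no filter, 332 with the unadjusted t-test, 521 with no fold limit, and, with 1 sample left out, 94 (NC replicate 1), 101 (NC replicate 2), 109 (HF replicate 21) and 95 (HF replicate 24). Values near the bottom of the scale (Actg2, Cnn1 and Smtn) limit what can be seen of these genes.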
